A study of Mus musculus with 15 samples.

Results

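Pools of mouse 2-cell embryos named R62D in their titles (pair B) were compared with pools named Wt (pair A), in 2 libraries each, across the protein-coding genes that these 4 libraries expressed well. A gene entered where its mean over the 4 libraries was at least 5 FPKM (fragments per kilobase of gene, scaled to a fixed number of assigned fragments). This gave 4839 of the 53023 genes in the table, out of 21963 protein-coding ones. Just inside the threshold was Eya3, at a mean of 5.00 FPKM, and just outside it was Ncmap, at 4.995 FPKM. A gene low in either pair could enter through the other alone, so the threshold favoured wide separations among low genes.

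All embryos were of the ICR strain, were made by in vitro fertilization, and were collected as pools of 5 at 32 hours post insemination. The study asked what a disturbance of filamentous actin in the nucleus does to the embryo, by injecting mRNA for actin into zygotes 2 hours after insemination. R62D is a mutant actin that does not polymerize, and NLS and HA stand for a nuclear localization signal and an epitope tag. The labels contradict each other on which pair received what. Pair A is titled Wt, which the study's design describes as wild-type actin expressed in the nucleus, but its annotation of the injected mRNA says non-injected. Pair B is titled R62D but annotated actinWT-HA-NLS. By the titles, B against A is therefore mutant against wild-type nuclear actin. By the annotation, it is wild-type nuclear actin against no injection, so that any difference would also hold the injection itself. The titles of a further pair, C, name a non-injected control, and its annotation says actinR62D-HA-NLS. It entered the fit to estimate the spread and its levels are given beside the others. Every direction below is from A to B, and neither reading was chosen from the values. The injected mRNA is transient and each pool averages its embryos. The labels name no mating or day, so p-values measure only the spread between these pools.

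At the 2-cell stage the mouse embryo starts to transcribe its own genome in bulk while the RNA stored in the egg is broken down. Transcripts such as Zfp352 and the Zscan4 family appear in a short burst at this stage, and egg transcripts such as Zp3 and Gdf9 decline. Actin moves in and out of the nucleus, where it takes part in chromatin remodelling complexes and in transcription, and it can also form filaments there. Before X inactivation both X chromosomes of a female embryo are active, while a male embryo has a single X.

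The libraries held between 907210 and 1555431 assigned reads, so 1 read in a gene of 2 kb was worth 0.321 to 0.551 FPKM. Libraries did not sort by pair. The first principal component, with 28.7% of the variance, set A2 and C2 apart from the other 4, and A2 also had the highest mitochondrial share (13.1% of its reads). The second, with 21.8%, ran from A1 to B2. The defining transcripts of the stage were present in every library, from 111.2 to 320.7 FPKM for Zfp352 in A and B. Of 22 markers of cumulus and granulosa cells, which surround the egg, 11 were listed at 0 in A1, A2, B1 and B2, among them Fshr, Lhcgr and Foxl2. The summed reads were 62 and 112.5 in A against 95 and 116.5 in B. Most were of a single gene, Nr5a2, with 46 and 92.5 reads in A and 72 and 86 in B. Of 10 blood cell markers, 4 were listed at 0 in those 4 libraries: the globin genes Hbb-bt and Hbb-bs, and S100a8 and S100a9. Ptprc, Lyz2 and Alas2 held at most 2 reads in any of those libraries. The summed reads of the 10 were 68.5 and 14 in A against 80.5 and 61 in B. All 3 that reached 5 FPKM (Hba-a1, Hba-a2 and Cd74) had a difference above 0 (median 0.72), but without A2 Hba-a1 and Hba-a2 were at −0.47 and −0.60. The globin gene Hba-a1 was at 42.3 and 8.81 FPKM in A and at 39.1 and 23.5 FPKM in B, so the pairs overlapped, while Cd74, of antigen-presenting cells, was at 3.55 and 1.27 against 4.21 and 13.1 FPKM, with both B libraries above. Cd74 reached a mean of 5 FPKM only through B2. Whether such cells were in the pools, and their part in the other results, was not tested.

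No gene passed in either direction. With limma on log2(FPKM + 1), adjusted by the Benjamini-Hochberg method over all 13443 genes fitted, 0 of the 4839 genes were called at an adjusted p below 0.05, as against 0.0% of all genes fitted, and the smallest adjusted p among the 4839 was 0.409. At an unadjusted p below 0.05, 124 genes (2.56%) were higher in B and 55 (1.14%) lower, beside 2.77% and 1.79% of all genes fitted. Fewer genes than the test's own 5% thus lay under that limit. With limma-voom, run on reads recovered from the table, 0 genes were called too, with 146 higher and 48 lower at an unadjusted p below 0.05. All values that follow are therefore sizes and separations of the libraries, not called changes.

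Both B libraries lay above both A libraries for 1061 genes (21.9%) and below them for 574 (11.9%), beside 18.8% and 12.8% of all genes fitted. The pairs overlapped for the remaining 3204. The median difference of B minus A was 0.10 on the log2(FPKM + 1) scale, against 0.07 over all genes fitted, and the middle 80% of genes lay between −0.45 and 0.66. This lean to higher values moved with the scaling. The higher share of the genes under the unadjusted limit was 69.3%, but 54.9% after scaling each library to its median and 57.1% after quantile normalization, and the median difference became 0.0035 and 0.04. Libraries of the same pair differed as much as libraries of different pairs. The median absolute difference was 0.39 between A1 and A2 and 0.40 between B1 and B2, and it ran from 0.31 (A1 and B1) to 0.43 (A2 and B2) between the pairs.

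**Figure D1:**
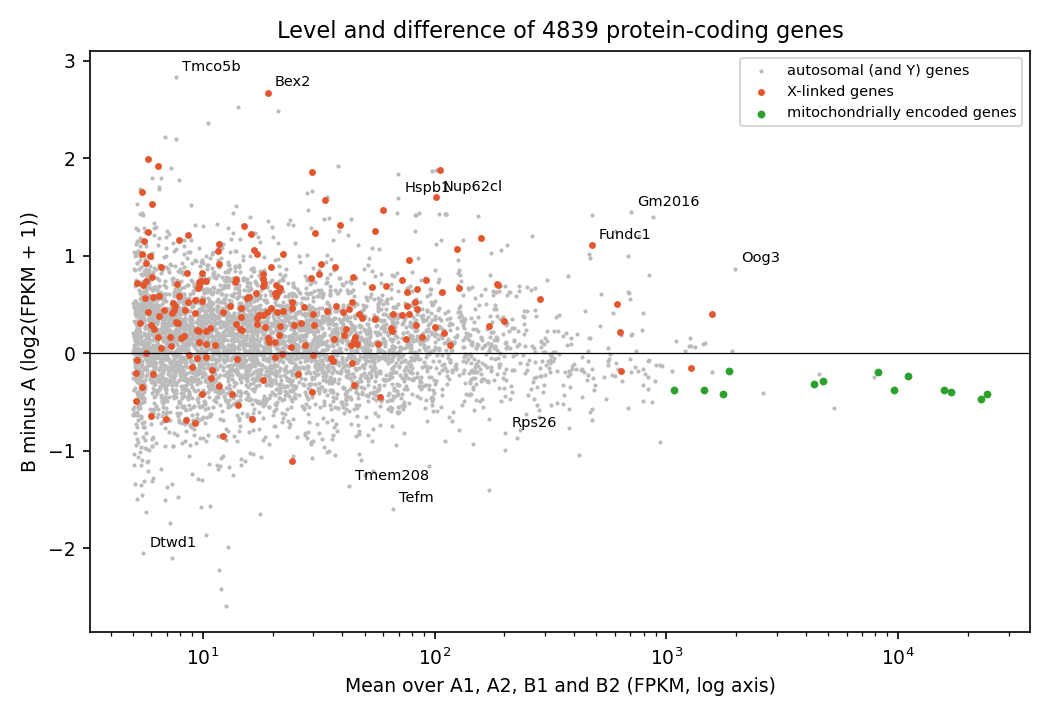
Mean level over A1, A2, B1 and B2 (FPKM, log axis) against B minus A on the log2(FPKM + 1) scale, 1 point per gene for 4839 protein-coding genes, with X-linked and mitochondrially encoded genes coloured. X-linked points lie mostly above 0, with a median of 0.42, and the 13 mitochondrial points at the right all lie below it.

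The difference varied with level and with gene length. Genes between 5 and 10 FPKM had a median of 0.13, and the 242 genes at 200 FPKM or more had a median of −0.08. In the 1211 shortest genes (up to 1848 bases) the median was −0.01, and in the 1210 longest (from 5277 bases) it was 0.14. The change with length lay mainly in A1 and B2. From the shortest to the longest genes, the median level centred per gene went from 0.07 to −0.06 in A1 and from −0.03 to 0.08 in B2. It went from −0.06 to −0.08 in A2 and from 0.06 to 0.04 in B1. The most abundant transcripts were mitochondrial: mt-Atp6, a subunit of ATP synthase, stood at 26940 and 28350 FPKM in A and at 18590 and 23070 FPKM in B.

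Among the 15 genes with the lowest unadjusted p in the higher direction, folds on the log2(FPKM + 1) scale ran from 2.27 to 7.11 and adjusted p from limma from 0.409 to 0.875. First was Tmco5b (ENSMUSG00000041255.2, chr2:113285732-113297190 on mm10), a coiled-coil transmembrane protein gene. Its level was 1.62 and 0.723 FPKM in A, 14.7 and 13.5 FPKM in B, and 1.56 and 2.67 FPKM in C. Both B libraries stood far above the other 4, on few reads: 3 in pair A against 43 in pair B, a ratio per assigned read of 12.3 (95% exact interval 3.95 to 62.2, counting error only). The fitted difference was 2.83 ± 0.42 (SE, n = 2 per pair; adjusted p = 0.409 by limma). Tmco5b, Bex2, Npw, Usp26, 4930579G24Rik and Hist1h2bc had A means below 5 FPKM and entered only through pair B.

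Hspb1 (ENSMUSG00000004951.10, chr5:135887919-135889563) codes for a small heat shock protein that binds unfolded proteins and actin filaments. Its level was 39.3 and 29.5 FPKM in A, 111.2 and 98.7 FPKM in B, and 32.7 and 33.1 FPKM in C. The means were 34.4 ± 6.92 FPKM in A and 104.9 ± 8.87 FPKM in B (SD, n = 2), so B stood apart from both other pairs and A and C lay close together. The difference was 1.59 ± 0.29 (SE; adjusted p = 0.479 by limma), and it stayed between 1.39 and 1.79 under 13 alternatives.

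Zfp42, the Rex1 marker of pluripotent cells, was at 6.38 and 7.13 FPKM in A and at 19.3 and 22.9 FPKM in B. Pair C, at 16.9 and 19.9 FPKM, lay near B for this gene, unlike for Hspb1. Cd24a, a surface glycoprotein, was at 15.7 and 14.7 FPKM in A, at 53.3 and 68.8 FPKM in B, and split between 38.5 and 16.4 FPKM in C. Npw, the precursor of neuropeptide W, was at 1.57 and 4.21 FPKM in A and at 14.2 and 22.3 FPKM in B, but rested on 4 reads in pair A and 28 in pair B (ratio per assigned read 6.03, 95% exact interval 2.11 to 23.6). The replication-dependent histone gene Hist1h2bc was at 7.27 and 1.27 FPKM in A and at 20.5 and 27.9 FPKM in B. Of 19 histone genes, Hist1h2bc included, 3 (15.8%) lay above and 1 (5.26%) below, against 21.9% and 11.9% of all genes studied. The uncharacterized 4930579G24Rik was at 2.28 and 2.27 FPKM in A and at 17.7 and 7.01 FPKM in B.

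An alpha-tubulin gene was also among the 15. Tuba1c was at 6.68 and 4.86 FPKM in A, at 34.2 and 38.9 FPKM in B, and at 23.1 and 5.70 FPKM in C. The other tubulins were picked once their values had been seen. Of 6 alpha-tubulin genes, 4 (Tuba1c, Tuba3b, Tuba1a and Tuba1b) lay above in both B libraries, beside 21.9% of all genes studied, and Tuba3a and Tuba4a overlapped. Tuba1a and Tuba1b, at means of 3.03 and 1.78 FPKM in A, reached 5 FPKM only through pair B. The threshold itself thus favoured that count. Of 4 beta-tubulin genes 1, Tubb5, lay above, with a difference of 0.99, and Tubb6, at 0.96, overlapped. A difference between the alpha and beta genes was not tested. Alpha-tubulin genes are near-identical in sequence and a read that fitted several genes was split into fractions, so these 4 are not independent and the single values are uncertain.

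The windows below, the 250 bases before the start of 5 of the genes just described or described further on, are shown because these genes were among those with the widest separations or stand for a list. They are from RefSeq on GRCm38.p6, each 5′ to 3′ on the strand of its gene. Capitals mark a match, on either strand, to the TATA box (TATAAA), the CCAAT box (CCAAT), the GC box (GGGCGG) or the heat shock element (GAANNTTC).
Hspb1 (chr5:135887669-135887918, plus strand): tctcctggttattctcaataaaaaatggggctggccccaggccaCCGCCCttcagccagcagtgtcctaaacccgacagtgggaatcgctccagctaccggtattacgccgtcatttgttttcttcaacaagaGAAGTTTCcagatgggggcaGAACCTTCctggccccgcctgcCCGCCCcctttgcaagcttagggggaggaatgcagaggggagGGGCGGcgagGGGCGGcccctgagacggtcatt
Tmco5b (chr2:113285482-113285731, plus strand): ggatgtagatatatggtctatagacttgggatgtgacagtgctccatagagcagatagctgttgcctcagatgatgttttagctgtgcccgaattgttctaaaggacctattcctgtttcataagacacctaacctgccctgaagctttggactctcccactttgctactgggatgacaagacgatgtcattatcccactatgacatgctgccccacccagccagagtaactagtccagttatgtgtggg
Tuba1c (chr15:99029641-99029890, plus strand): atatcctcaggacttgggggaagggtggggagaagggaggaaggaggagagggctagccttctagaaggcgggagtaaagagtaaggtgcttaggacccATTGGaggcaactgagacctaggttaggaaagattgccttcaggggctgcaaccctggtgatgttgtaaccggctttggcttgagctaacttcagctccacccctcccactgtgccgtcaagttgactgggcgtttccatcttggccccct
Bex2 (chrX:136068237-136068486, minus strand): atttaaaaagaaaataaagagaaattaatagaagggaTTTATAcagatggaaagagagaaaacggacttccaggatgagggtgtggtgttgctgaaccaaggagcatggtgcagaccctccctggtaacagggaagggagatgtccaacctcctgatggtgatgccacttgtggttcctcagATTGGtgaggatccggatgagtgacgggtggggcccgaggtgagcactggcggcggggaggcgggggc
Rps26 (chr10:128626507-128626756, minus strand): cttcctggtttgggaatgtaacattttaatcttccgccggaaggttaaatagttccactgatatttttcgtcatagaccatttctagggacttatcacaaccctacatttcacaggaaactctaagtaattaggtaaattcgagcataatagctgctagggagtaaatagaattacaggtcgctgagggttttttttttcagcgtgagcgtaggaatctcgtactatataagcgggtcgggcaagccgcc
Hspb1 held 2 heat shock elements and 4 GC boxes, Tuba1c 1 CCAAT box, Bex2 a TATA box and a CCAAT box, and Tmco5b and Rps26 none of the 7 motifs searched.

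Of 4835 gene symbols, 3686 had such a window. The heat shock element was in 6.70% of them, in 5.23% of the 803 whose B libraries both lay above A, and in 7.16% of the 419 whose B libraries both lay below. Among all 27025 windows it was in 7.73%. The GC box was in 67.1% of the windows of genes above, in 58.7% of those below and in 61.7% of all 3686, against 35.4% of all windows. The CCAAT box was in 47.3% of the windows above and 36.8% of those below. CArG boxes, the letters bound by the actin-regulated factor SRF, were in 44 windows (1.19%), whose genes had a median of −0.09 against 0.10 for the others. The cyclic AMP response element (TGACGTCA) was in 3.55% of the windows and the E-box (CACGTG) in 10.3%. These are matches of letters in a window, not sites shown to be bound.

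In the lower direction the 15 genes with the lowest unadjusted p had folds on the same scale from 2.02 to 4.14 and adjusted p from limma from 0.676 to 0.991. Fkbp2 (ENSMUSG00000056629.15, chr19:6977741-6980461), a peptidyl-prolyl isomerase of the endoplasmic reticulum, led them. It was at 31.7 and 22.9 FPKM in A, at 8.35 and 7.58 FPKM in B, and at 27.1 and 19.9 FPKM in C, so that B lay below both other pairs. The difference was −1.64 ± 0.34 (SE, n = 2 per pair; adjusted p = 0.676 by limma). Tmem208, another protein of that membrane, was at 59.6 and 63.9 FPKM in A, at 21.4 and 25.5 FPKM in B, and at a mean of 44.8 ± 10.97 FPKM (SD, n = 2) in C.

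The other named genes included 3 that act in mitochondria: Tefm, an elongation factor of mitochondrial transcription (86.9 and 106.5 FPKM in A, 53.4 and 18.1 FPKM in B), Tfb1m, which methylates mitochondrial ribosomal RNA (7.91 and 8.43 against 2.38 and 2.84 FPKM), and Ndufa6, a subunit of respiratory complex I (48.2 and 44.7 against 22.6 and 22.4 FPKM). Another 3 act on RNA: Rpp38, a subunit of RNase P (127.1 and 131.8 against 42.5 and 77.9 FPKM), Dtwd1, which modifies transfer RNA (11.8 and 7.29 against 1.17 and 1.86 FPKM), and Bcdin3d, an RNA methyltransferase (11.8 and 11.3 against 3.73 and 1.98 FPKM). Dtwd1 rested on 27 reads in A and 5 in B, a ratio of A over B per assigned read of 6.27 (95% exact interval 2.38 to 20.9). Actn2, an alpha-actinin that crosslinks actin filaments, was at 9.49 and 12.5 FPKM in A and at 2.92 and 4.63 FPKM in B. Morc1, which represses transposons in germ cells, was at 9.84 and 6.45 FPKM in A and at 2.85 and 1.65 FPKM in B. Nanp, a phosphatase of sialic acid synthesis, was at 17.5 and 12.8 against 3.32 and 5.63 FPKM, and Lst1, a leukocyte membrane protein, at 63.9 and 77.6 against 36.2 and 23.2 FPKM. The other named genes were Gm6741, 1810022K09Rik and the copy gene Anapc15-ps. 1810022K09Rik was at 64.3 and 62.8 FPKM in A and at 37.2 and 24.9 FPKM in B. In each of these genes both B libraries lay below both A libraries, which the naming rule required. Dtwd1, Morc1, Tfb1m, Bcdin3d, Actn2, Nanp and Gm6741 had B means below 5 FPKM and entered only through pair A.

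**Figure D2:**
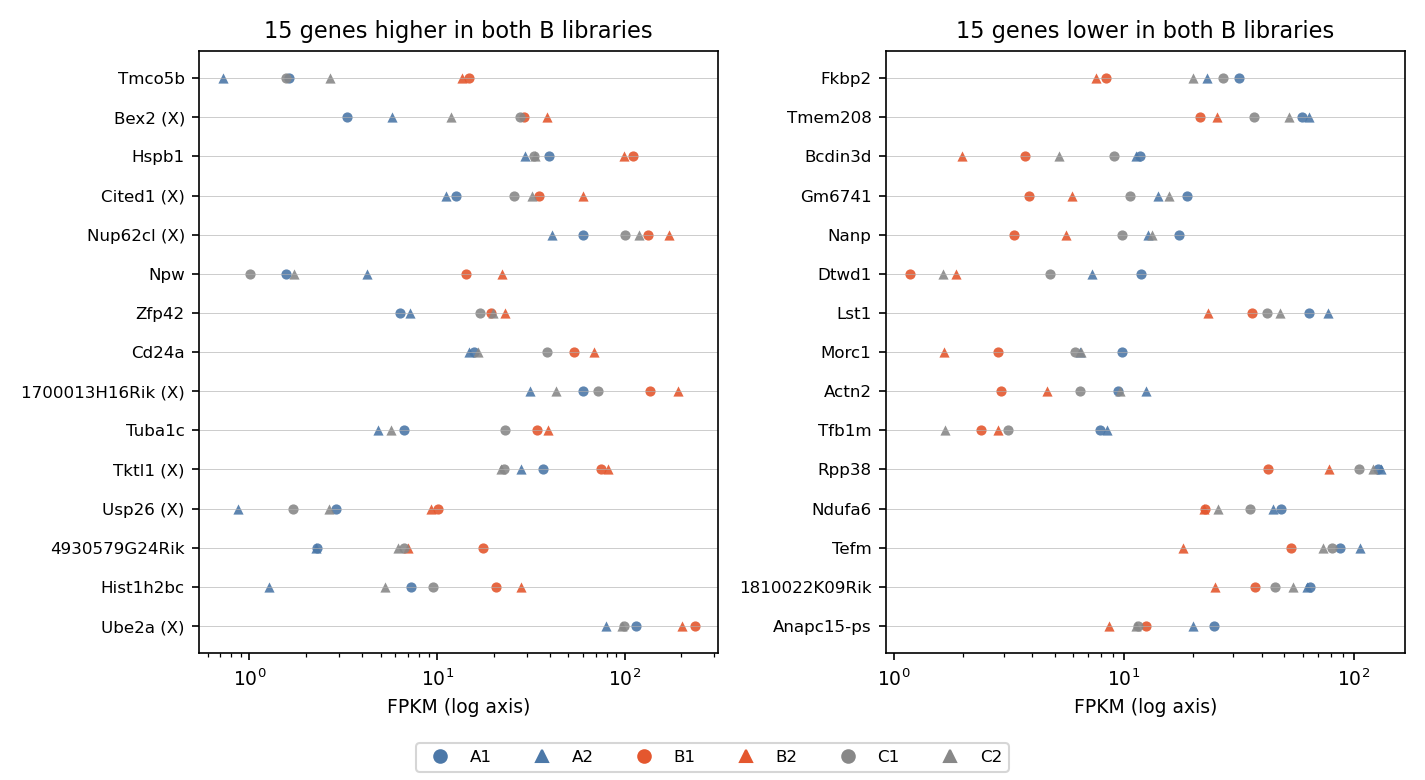
FPKM (log axis) in each of the 6 libraries for the 15 genes per direction with the lowest unadjusted p among genes whose A and B libraries do not overlap, circles for replicate 1 and triangles for replicate 2. X marks the 7 X-linked genes in the higher panel, and pair C lies with A for genes such as Hspb1 and nearer to B for genes such as Zfp42.

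Among abundant transcripts, those higher in B at an unadjusted p below 0.05 included genes of the egg and the 2-cell stage. Gm2016 was at 472.3 and 292.9 FPKM in A and at 936.7 and 1104 FPKM in B, and Gm5662, also of the 2-cell-stage list, at 700.8 and 309.7 against 1081 and 1404 FPKM. Oog3, an oogenesin gene expressed in oocytes and early embryos, was at a mean of 1419 ± 429 FPKM in A and 2533 ± 60.7 FPKM in B, and the oocyte-secreted Oosp3 at 473.8 ± 232.0 and 898.3 ± 186.6 FPKM (SD, n = 2). Those lower included Ppia, the prolyl isomerase cyclophilin A (148.5 and 140.4 against 84.0 and 70.5 FPKM), and Srp14, a subunit of the signal recognition particle (293.7 and 279.2 against 220.3 and 111.4 FPKM). The adjusted p was 0.991 by limma for each of these 6 genes.

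X-linked genes made up many of the genes higher in B. Of the 15 genes in the higher direction 7 were X-linked, against 0 of the 15 in the lower. X-linked genes made up 22 of the 124 higher genes at an unadjusted p below 0.05 (17.7%) but 4.38% of all genes studied. Of those 22, Bex2, Usp26, Fam122b, 1700080O16Rik, Piga, Mageb16 and Atp6ap1 had A means below 5 FPKM and entered only through pair B. The threshold itself thus favoured both counts. The 212 X-linked genes had a median difference of 0.42, beside 0.09 for the 4612 autosomal ones, and the median of the 19 autosomes ran from −0.02 to 0.17. Both B libraries lay above both A libraries for 86 X-linked genes (40.6%) and below for 4 (1.89%), against 21.1% and 12.2% of autosomal genes. The 4 below were Uxt, Etd, Gm6880 and Tsr2. The difference ran along the chromosome, with medians of 0.47 over its first 71 genes, 0.36 over the middle 70 and 0.42 over the last 71. It kept its direction under both scalings, at 0.32 after median scaling and 0.35 after quantile normalization.

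The members with the lowest p show its size. Bex2 (ENSMUSG00000042750.7, chrX:136066564-136068236), a brain-expressed X-linked gene, was at 3.32 and 5.78 FPKM in A, at 29.0 and 38.7 FPKM in B, and at 27.5 and 11.9 FPKM in C. It rested on 9 reads in pair A and 75 in pair B, a ratio per assigned read of 7.18 (95% exact interval 3.59 to 16.3). Cited1, a transcriptional coactivator, was at 12.5 and 11.2 FPKM in A and at 34.7 and 59.5 FPKM in B. Nup62cl, related to the pore protein Nup62, was at 59.5 and 40.8 FPKM in A and at 133.2 and 173.1 FPKM in B. Pair C lay between A and B for both, at means of 28.9 and 109.7 FPKM.

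Other X-linked genes separated B from C as well as from A. Tktl1, a transketolase-like enzyme, was at 36.8 and 27.9 FPKM in A, at 74.8 and 81.2 FPKM in B, and at 22.6 and 21.8 FPKM in C. Ube2a, a ubiquitin-conjugating enzyme of DNA repair, was at 115.3 and 79.1 FPKM in A, at 235.4 and 201.9 FPKM in B, and at 99.0 and 96.5 FPKM in C. Usp26, a deubiquitinating enzyme, was at 2.90 and 0.866 FPKM in A and at 10.1 and 9.32 FPKM in B. Fundc1, a mitophagy receptor of the outer mitochondrial membrane, was at 427.1 and 205.7 FPKM in A, at 684.1 and 601.9 FPKM in B, and at a mean of 267.3 ± 20.3 FPKM in C. The uncharacterized 1700013H16Rik was at 59.6 and 31.4 FPKM in A and at 136.9 and 192.9 FPKM in B. In all 5 of these both B libraries exceeded both A libraries. The ubiquitin ligase Rlim, which acts in the control of Xist, was at 27.5 and 23.9 FPKM in A and at 40.6 and 57.3 FPKM in B.

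**Figure D3:**
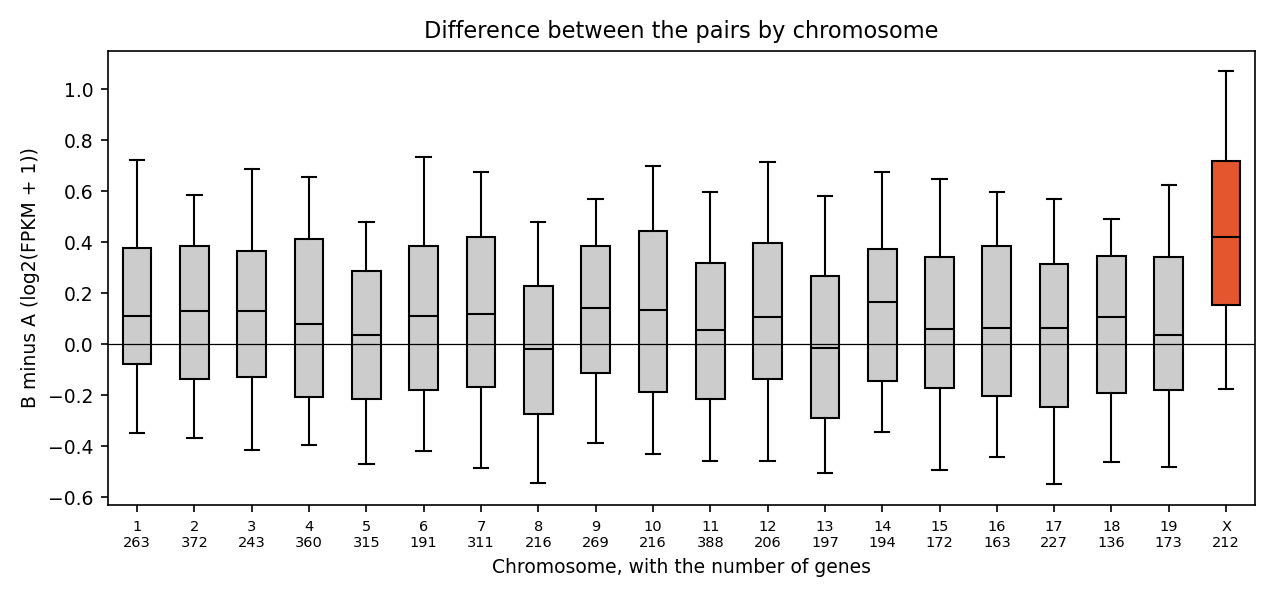
B minus A on the log2(FPKM + 1) scale by chromosome, boxes from the 25th to the 75th percentile with the median as a line, whiskers to the 10th and 90th, and the number of genes under each name. The box of the X chromosome lies above the others, with a median of 0.42 against −0.02 to 0.17 for the autosomes.

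The X-linked values and the reads of Y-linked genes differed between libraries of a pair. The median level of X-linked genes minus that of autosomal genes, each gene centred on its mean over 6 libraries, was 0.09 in A1 and −0.29 in A2, 0.16 in B1 and 0.31 in B2, and −0.24 in C1 and −0.04 in C2. Reads of 9 Y-linked genes summed to 107 RPM (reads scaled by the assigned reads of the library) in A1, 271 in A2, 154 in B1, 200 in C1 and 255 in C2, and to 0 reads in B2 (a count of 0 allows up to 3 reads). The library with 0 Y reads thus had the highest X level, and A2 the lowest X level and the most Y-linked RPM. The other libraries did not follow that order: from C1 to C2, and from A1 to B1, the X level and the Y-linked RPM were both higher. Eif2s3y, the only Y-linked gene of that list that reached 5 FPKM, was at 8.41 and 27.1 FPKM in A and at 15.96 and 0 FPKM in B. The number of male and female embryos per pool is not in the labels, and its part in the X-linked values was not tested.

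Without A2 the X-linked median was 0.19, with 11 X-linked genes higher and 5 lower at an unadjusted p below 0.05, and without B2 it was 0.34, with 12 higher and 2 lower. Between A1 and B1, the A and B libraries nearest in Y-linked RPM (107 and 154), the median X-linked difference was 0.14, with 131 of 212 genes higher in B1, and the autosomal one 0.05. Between A2 and B2 it was 0.70, with 184 of 212 higher. Within pair A it was −0.42 from A1 to A2, as large as between the pairs. Xist, which coats the inactive X, did not exceed 0.304 FPKM in any library.

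**Figure D4:**
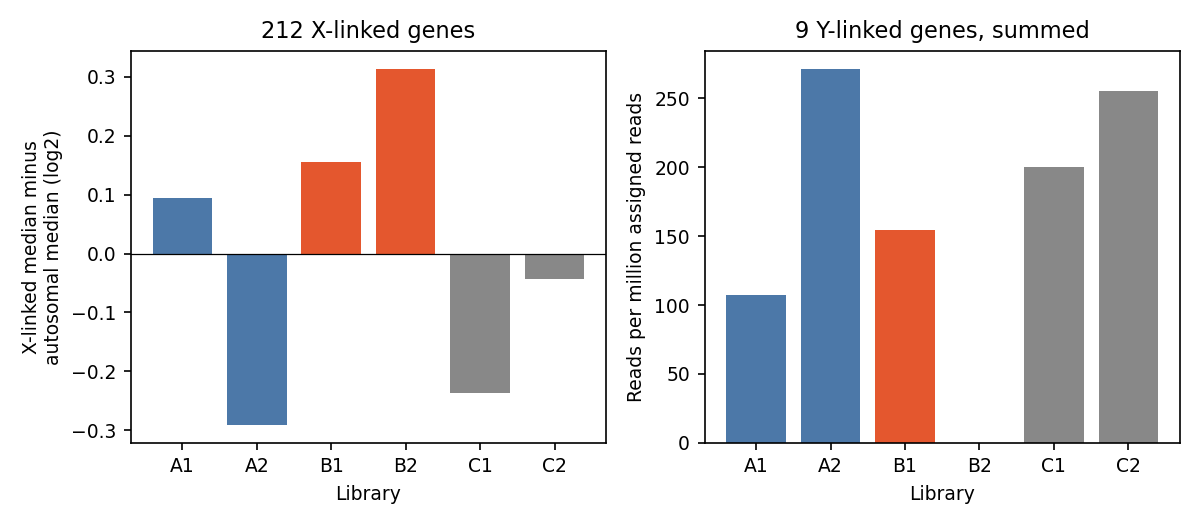
Left, the median level of 212 X-linked genes minus that of autosomal genes in each library (log2(FPKM + 1), centred per gene). Right, summed reads of 9 Y-linked genes in RPM, with 0 in B2, which has the highest X level on the left, and 271 in A2, which has the lowest.

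Of 3 actin genes that reached a mean of 5 FPKM, 1 separated the pairs, as did 33.8% of all genes studied. Actb (ENSMUSG00000029580.14, chr5:142903115-142906754), cytoplasmic beta-actin, was at 52.0 and 69.2 FPKM in A, at 116.1 and 74.1 FPKM in B, and at 34.6 and 27.1 FPKM in C. Both B libraries lay above A, and both C libraries below, with a B minus A difference of 0.62 ± 0.35 (SE, n = 2 per pair; adjusted p = 0.991 by limma). Whether reads of the injected actin mRNA were counted in an actin gene is not given in the sources used here, so endogenous and injected transcripts cannot be told apart. Gamma-actin, Actg1, was at 7.25 and 10.1 FPKM in A and at 7.98 and 8.27 FPKM in B. Muscle actin Acta1 was at 4.56 and 10.1 FPKM in A, at 5.02 and 1.36 FPKM in B, and listed at 0 in both C libraries. Exportin 6, Xpo6, which carries actin out of the nucleus, was below the threshold at 3.25 and 1.38 FPKM in A and at 2.24 and 1.53 FPKM in B.

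Of 7 genes of nuclear actin transport and nucleation 0 had an unadjusted p below 0.05, beside 3.70% of all genes studied. In lists as short as those in this paragraph, 0 is close to that share. The profilin gene Pfn1, whose protein delivers actin monomers, was at 8.94 and 9.30 FPKM in A and at 11.5 and 16.2 FPKM in B, and cofilin 1, Cfl1, at 43.3 and 36.1 against 43.2 and 52.4 FPKM. The 11 genes of the branching Arp2/3 complex and its activators had a median of −0.04 and the 12 of actin turnover and capping one of −0.27, again with 0 at that p. The first was −0.15 without B1 and 0.03 without B2, and the second was 0.28 without A1, −0.46 without B1 and 0.13 without B2. Twf1, a twinfilin that binds actin monomers, was at 8.76 and 6.15 FPKM in A and at 3.495 and 3.70 FPKM in B, and the depolymerizing factor Dstn at 149.6 and 181.1 against 124.9 and 130.1 FPKM. In both of these B lay below A, and in the capping genes Capza1 (17.5 and 21.2 against 28.1 and 25.2 FPKM) and Capza2 it lay above. Twf1 reached a mean of 5 FPKM only through pair A. A list of 25 SRF targets, which did not hold Actb, Actg1 or Acta1, had 2 genes that reached 5 FPKM, Tpm3 and Cnn3.

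For the gene lists that follow, the counts of genes above and below are to be read beside 21.9% and 11.9% of all 4839 genes, and those under the unadjusted limit beside 3.70%. Leaving out 1 library changed the sign of the median in 17 of the 30 lists with 10 or more members, and changed the sign or moved the median by over 1.5 times in all 30, so the libraries that did so are given beside the medians.

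The 2-cell-stage programme had the highest median of the lists with 10 or more members, at 0.67 over 29 genes beside 0.10 over all 4839. Of the 29, 15 (51.7%) lay above in both B libraries and 0 below, against 21.9% and 11.9% of all genes, and 11 were higher at an unadjusted p below 0.05, against 2.56% of all genes. Zfp352, a zinc finger gene of the stage, was at 147.0 and 111.2 FPKM in A and at 241.3 and 320.7 FPKM in B, a difference of 1.12 ± 0.30 (SE, n = 2 per pair). Tdpoz2 was at 11.9 and 15.3 against 32.6 and 37.8 FPKM, and Zscan4d, of a family tied to telomere maintenance, at 88.0 and 73.9 against 153.1 and 214.5 FPKM.

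The stage genes differed within the pairs too. Their median level, centred per gene, was −0.01 in A1, −0.63 in A2, −0.02 in B1 and 0.81 in B2, so that A1 and B1 were alike. The list's median was 0.39 without A2 and 0.49 without B2, and 1.15 without A1 and 1.18 without B1. Zscan4f shows this: at 45.9 and 25.7 FPKM in A, it was at 60.6 FPKM in B1 and 274.1 FPKM in B2. Many of these genes (Zscan4, Tdpoz, Usp17l) are near-identical copies and do not count as independent.

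Transcripts of the egg went in both directions. The 42 maternal and oocyte genes had a median of 0.23, which was −0.23 without A2, 0.67 without A1, 0.084 without B1 and 0.39 without B2. Of the 42, 8 lay above and 2 below, and 2 were higher and 0 lower at an unadjusted p below 0.05. These 2 were Dazl, a germ-cell RNA-binding protein (29.2 and 16.4 FPKM in A, 47.6 and 53.2 FPKM in B), and Oosp3. The germ-cell helicase gene Ddx4 was at 26.5 and 15.1 FPKM in A and at 13.6 and 5.55 FPKM in B, and Zp3, of the egg coat, at 96.0 and 142.0 against 64.8 and 92.4 FPKM. Both of these lay below in B. Tcl1b1, an oocyte gene, ran from 2469 FPKM in A1 to 259.7 in A2 and was at 789.3 and 229.0 FPKM in B, so the pairs overlapped and the libraries of each pair lay far apart. Of the Obox homeobox genes 1 of 7, Obox3, lay above (198.0 and 229.4 FPKM in A, 303.0 and 273.0 FPKM in B).

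The 19 cell cycle regulators had a median of 0.28, against 0.10 over all genes, which was 0.16 without A2 and −0.06 without B2. Of the 19, 4 lay above and 2 below. Fbxo5, the Emi1 inhibitor of the anaphase-promoting complex, was at 42.4 and 51.6 FPKM in A and at 85.3 and 149.0 FPKM in B. Cdkn1a, the p21 inhibitor and a target of p53, was at 20.7 and 8.45 FPKM in A and at 7.47 and 3.01 FPKM in B, whose libraries lay below A. The 52 mitosis genes had a median of 0.096 (0.039 without A1, 0.18 without B1 and 0.013 without B2), with 9 above, 3 below and 1 at an unadjusted p below 0.05, the condensin subunit Smc4 (30.0 and 18.5 against 42.2 and 52.7 FPKM). Of 18 genes of DNA repair 5 lay above and 2 below. Ercc3, a helicase of the repair and transcription factor TFIIH, was at 4.94 and 5.68 FPKM in A and at 11.99 and 11.8 FPKM in B.

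Histone-modifying enzymes and remodellers separated the pairs about as often as all genes studied. Of 26 histone-modifying enzymes 10 did (38.5%), 7 above and 3 below, and of 22 remodellers 7 did (31.8%), 5 above and 2 below, against 33.8% of all 4839 genes. The deacetylase Hdac2 was the 1 enzyme at an unadjusted p below 0.05 (10.7 and 16.8 FPKM in A, 23.5 and 31.3 FPKM in B), and 0 remodellers were. The medians were 0.13 for the enzymes (0.21 without A1, 0.26 without B1 and 0.082 without B2) and 0.14 for the remodellers (0.071 without A1, 0.38 without B1 and 0.024 without B2). Dppa3, which guards maternal DNA methylation, was at 8278 and 8570 FPKM in A and at 8842 and 5727 FPKM in B, and so overlapped.

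Splicing factors held more genes below than above. Of 47, 14 lay below in both B libraries and 5 above, against 11.9% and 21.9% of all 4839 genes, although the median was −0.02 (−0.055 without A1, 0.014 without A2, 0.041 without B1 and −0.096 without B2). Snrpd3 and Snrpb2, of the spliceosome's small nuclear particles, were at 37.8 and 28.6 against 18.6 and 12.7 FPKM and at 47.3 and 46.5 against 31.0 and 20.2 FPKM. Nono, an X-linked paraspeckle protein gene, was higher, at 23.2 and 21.5 against 31.5 and 50.7 FPKM. Among 51 genes of RNA polymerases and general factors, Taf11 was at 19.6 and 20.3 FPKM in A and at 33.8 and 36.9 FPKM in B, and Polr3d, of RNA polymerase III, at 9.81 and 6.58 against 3.32 and 3.81 FPKM. Polr3d reached a mean of 5 FPKM only through pair A. Of 38 nuclear pore and transport genes, 11 (28.9%) lay above and 3 (7.89%) below. Ranbp1, a regulator of the Ran cycle that drives nuclear transport, was at 16.5 and 29.5 FPKM in A and at 55.3 and 53.3 FPKM in B.

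Ribosomal protein genes leaned lower as a list but not in every library. Over 83 genes the median was −0.17, with 64 differences below 0, 19 genes (22.9%) below in both B libraries and 4 (4.82%) above, against 11.9% and 21.9% of all genes studied. Rps26 (ENSMUSG00000025362.6, chr10:128624534-128626747) was at 218.2 and 299.4 FPKM in A, at 155.6 and 133.6 FPKM in B, and at 225.5 and 284.4 FPKM in C, with both B libraries below the other 4. Rpl29 was at 24.3 and 23.7 against 17.0 and 9.53 FPKM. The list's level was highest in A2 (0.28) and was −0.17 in A1, −0.08 in B1 and −0.21 in B2, and its median was 0.04 without A2, −0.43 without A1 and −0.093 without B2. Ribosomal protein genes are short, and have many processed copies that share their reads.

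The 13 mitochondrially encoded mRNAs all had a difference below 0, with a median of −0.37, and 7 (53.8%) lay below in both B libraries, against 11.9% of all genes studied. The median was −0.20 without A2. They were highest in A2 (level 0.39), and 0 of 13 had an unadjusted p below 0.05. After quantile normalization the median was −0.06 and mt-Atp6 and mt-Co3 were at 0.045 and 0. In a pool of whole embryos, fewer cells or embryos with a transcript and less of it per cell cannot be told apart. The 65 nuclear-encoded respiratory genes had a median of −0.10, which was −0.35 without B1 and 0.03 without B2, and 7 lay above and 12 below. They held Ndufb11, which is X-linked, higher (22.6 and 21.7 against 44.0 and 41.0 FPKM) and Ndufs7 lower (17.5 and 15.6 against 8.97 and 9.26 FPKM), besides Ndufa6.

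Nfe2l2, the NRF2 regulator of the oxidative stress response, was at 2.63 and 2.36 FPKM in A, at 9.997 and 10.8 FPKM in B, and at 9.82 and 3.48 FPKM in C. It reached the threshold only through pair B. With Tktl1 it was 1 of 2 genes, of 22 in the pentose phosphate and redox list, at an unadjusted p below 0.05, and that list had a median of 0.31, which was 0.16 without B2, with 5 above and 2 below. The 8 sterol genes had a median of 0.59, which was 0.96 without B1 and 0.30 without B2, with 4 above and 1 below. They held Sqle, a squalene epoxidase, at 7.39 and 6.94 against 11.6 and 14.6 FPKM and Fdft1, a squalene synthase, at 42.1 and 56.9 against 76.4 and 99.9 FPKM. Of 45 chaperone genes 10 (22.2%) lay above and 1 (2.22%) below, against 21.9% and 11.9% of all genes studied. Their median was 0.17, which was 0.089 without A1, 0.29 without B1 and 0.054 without B2. Besides Hspb1, Dnajb9, a cochaperone of the endoplasmic reticulum, was higher (223.4 and 331.3 FPKM in A, 431.4 and 517.7 FPKM in B). Hspd1, the HSP60 chaperonin of mitochondria, was at 15.9 and 10.6 FPKM in A and at 21.4 and 24.03 FPKM in B, with both B libraries above. They also lay above for Hsp90aa1, an HSP90 chaperone, at 99.5 and 140.8 against 144.8 and 157.3 FPKM. Other heat shock genes overlapped: Hspa8 was at 30.7 and 67.9 FPKM in A and at 32.7 and 76.3 FPKM in B, and Dnajb1 at 9.67 and 14.5 against 6.91 and 19.3 FPKM. Of 26 interferon and RNA-sensing genes 1, Stat2, had a mean over A and B that reached 5 FPKM. It was at 5.91 and 5.28 FPKM in A and at 5.74 and 6.50 FPKM in B. Cxcl10, an interferon-induced chemokine below that mean, was at 2.89 and 1.19 FPKM in A and at 10.7 and 4.46 FPKM in B, on 30.5 reads or fewer per library. Irf1, Mavs and, on 1 read per B library, Ifih1 also lay above in B. With Cxcl10, these were the only genes of the 26 to do so. Over all genes fitted, of which this list held 6, 18.8% did. In pair C, Irf1 was at 9.46 and 4.44 FPKM, Mavs at 1.54 and 1.98 FPKM and Cxcl10 at 1.14 and 0.49 FPKM. Isg20 lay below (3.49 and 3.13 against 0.425 and 2.70 FPKM), and 9 of the 26, among them Ifit3, Mx1 and Rsad2, were listed at 0 in A1, A2, B1 and B2.

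Lists of protein synthesis outside the cytoplasmic ribosomal proteins separated the pairs in 25 to 28.6% of their genes, against 33.8% of all genes studied. The proteasome, vacuolar ATPase and secretory pathway lists did so in 31.6 to 39.02%. The 55 ubiquitin and SUMO genes did so in 29.1% and the 45 chaperone genes in 24.4%. Of 56 mitochondrial ribosomal protein genes 7 lay above and 8 below, with a median of −0.05 (0.042 without A1, −0.15 without A2, −0.18 without B1 and 0.021 without B2). Of 60 genes of ribosome biogenesis 8 lay above and 7 below, with a median of 0.08 (−0.074 without A1, 0.29 without B1 and −0.15 without B2). Gar1, of the particles that modify ribosomal RNA, was at 11.7 and 12 FPKM in A and at 5.07 and 6.35 FPKM in B. Of 56 translation factors 7 lay above and 9 below. Eef1e1, a cofactor of the aminoacyl-tRNA synthetase complex, was at 40.2 and 53.5 FPKM in A and at 27.2 and 19.02 FPKM in B, and Mrpl18 was at 62.2 and 56.6 against 86.1 and 108.5 FPKM.

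Of 38 proteasome genes 7 lay above and 5 below, and 0 had an unadjusted p below 0.05. Psme2, a subunit of the proteasome activator PA28, was at 12.6 and 20.03 FPKM in A and at 24.9 and 31.6 FPKM in B. Among 41 secretory pathway genes, 8 lay above and 8 below. Stt3a, the catalytic subunit of an oligosaccharyltransferase that attaches sugars to proteins, was at 9.78 and 7.60 FPKM in A and at 19.6 and 14.9 FPKM in B, in the direction opposite to Srp14. Of 14 vacuolar ATPase genes 5 lay above and 0 below, and Atp6ap1, which is X-linked, was at 2.97 and 2.96 FPKM in A and at 5.75 and 10.5 FPKM in B. Atp6ap1 reached a mean of 5 FPKM only through pair B, so the threshold favoured its place among those above. Of 12 genes of the TCA cycle 7 separated the pairs (58.3%), 5 above and 2 below, with a median of 0.24 that was 0.084 without A2 and 0.40 without B2.

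**Figure D5:**
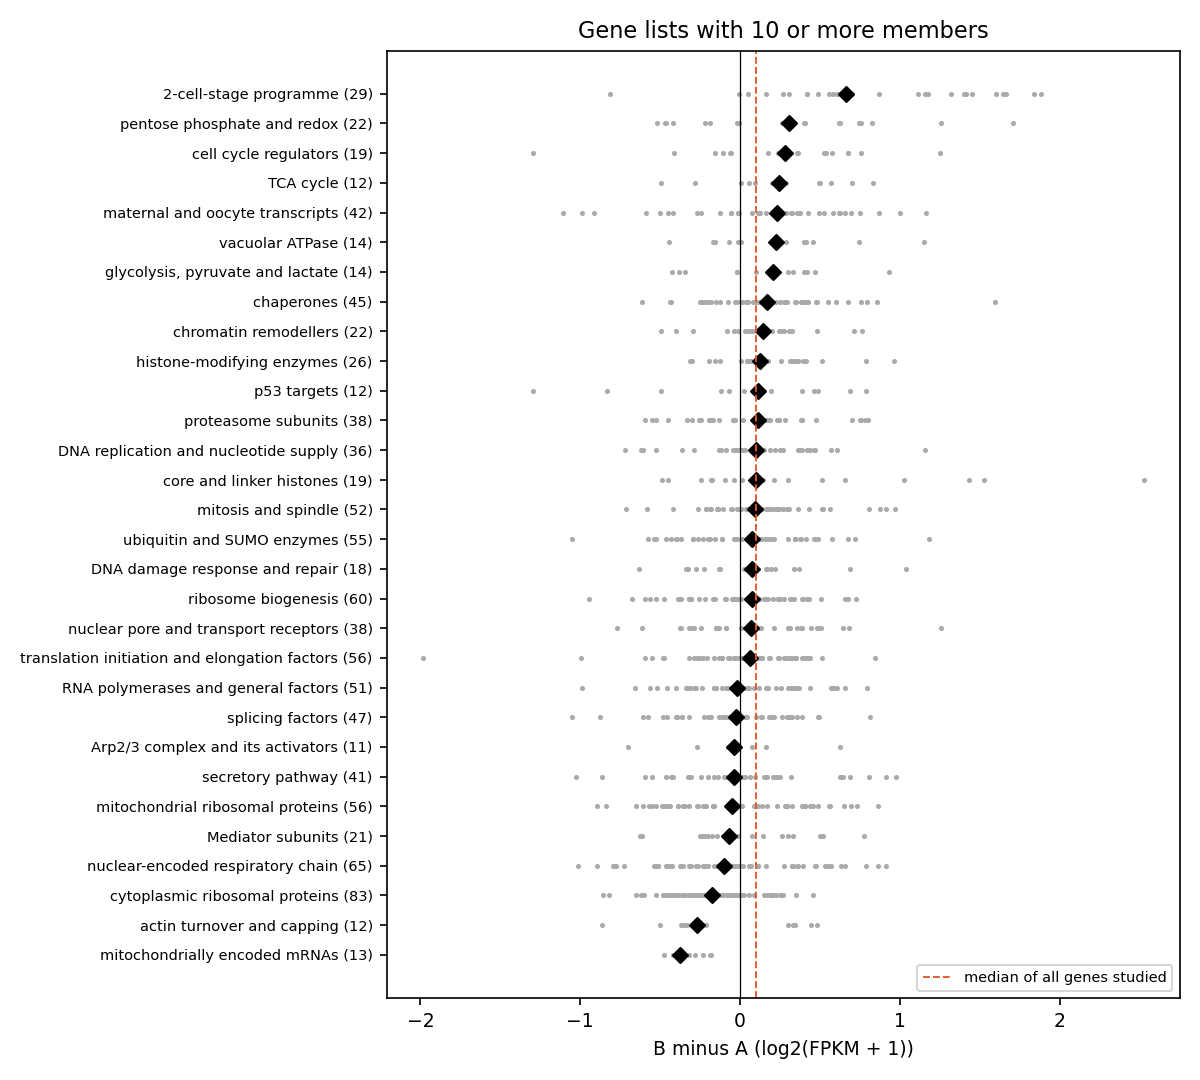
B minus A on the log2(FPKM + 1) scale for each gene (grey) of the 30 gene lists with 10 or more members, the number in brackets, with the list's median as a diamond and the dashed line at the median of all 4839 genes. The 2-cell-stage programme stands at the top with 0.67 and the mitochondrially encoded mRNAs at the bottom with −0.37, and 20 of the 30 medians lie above 0, against 14 after median scaling and 20 after quantile normalization.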

How the data were processed

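Gene-level RNA abundance was taken from a table of FPKM values that the authors deposited for 6 libraries. The submitters' processing notes name mm10, Trimmomatic, Trim Galore, cutadapt, STAR and featureCounts. The annotation is not given in the sources used here, nor is the use of strand. The other 9 libraries of the series were not analysed here.

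FPKM times gene length gave the reads per gene, since 100% of the values were multiples of 0.01 read (tolerance 0.0002 read). Each library held 907210 to 1555431 assigned reads. Intervals cover counting error only, since there were no molecular identifiers.

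Groups follow the titles' names, with both readings kept. log2(FPKM + 1) was fitted with limma 3.58.1 in R 4.3.3 (1 mean per pair, variance trend, mean over 6 libraries of at least 1 FPKM), adjusted over 13443 genes with a threshold of 0.05. The scale understates the change of low genes. The code was tested on simulated data. The genes studied and the gene lists were chosen with earlier results of these data known. Named genes are the 15 per direction with the lowest unadjusted p among those whose pairs do not overlap and that have at least 10 reads in each library of the higher pair, the 6 most abundant at an unadjusted p below 0.05 per direction, the 6 most abundant of all, up to 3 per list, and Actb, Actg1 and Xpo6. Other names, among them the tubulins, Zscan4f, Zp3, Tcl1b1, Capza2, Hspa8, Dnajb1, Hsp90aa1, Cxcl10, Irf1, Mavs, Ifih1, Isg20, Ifit3, Mx1, Rsad2, Hbb-bt, Hbb-bs, S100a8, S100a9, Fshr, Lhcgr, Foxl2, Uxt, Etd, Gm6880 and Tsr2, were chosen after their values were seen. Alternatives were quantile normalization, median scaling, another pseudocount (0.1 FPKM), no filter or one at 5 FPKM, pairs A and B alone, no variance trend, a replicate block, limma-voom on the reads, and leaving out each library. Replicate numbers were not taken as pairing the samples, but a structure shared by same-numbered libraries is not excluded. Over the genes studied, A1 and B1 correlated at 0.941 and A2 and C2 at 0.950, against 0.917 for A1 and A2. B2 correlated at 0.917 with A2 and at 0.912 with C2, against 0.924 with B1.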

Additional observations from a re-analysis of the deposited data

How the results depend on the processing

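In each of the 13 alternatives run, 0 genes were called in either direction, and the smallest adjusted p lay between 0.190 and 0.980. The counts that moved by over 1.5 times were these. Without the variance trend, 34 genes were lower in B at an unadjusted p below 0.05, against 55. Leaving out 1 library gave 33 (without A1) to 94 (without B1) lower and 65 (without B2) to 150 (without A1) higher genes (76 without A2), against 55 and 124, and 1815 to 2071 genes above and 1228 to 1400 below, against 1061 and 574. The last 2 counts rise since 3 libraries overlap less often than 4. A replicate block gave 146 higher and 69 lower genes, with 0 called. Same-numbered libraries of A and B deviated together with a correlation of 0.098, those of A and C with one of 0.203 and those of B and C with one of 0.0050, so not every pair of groups was over 0.1 and the numbers were not taken as pairing the samples. On autosomal genes alone, a setting chosen after seeing the data, 102 were higher, 55 lower, 975 above and 562 below.

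Of 159 named genes 143 kept their sign in every alternative. After median scaling Cnn3 was at −0.085 and Nr5a2 at −0.053, and after quantile normalization Dppa3 was at 0.076, Cnn3 at −0.046, Nr5a2 at −0.022, mt-Atp6 at 0.045 and mt-Co3 at 0. Leaving out each library, Xpo6 ranged from −0.57 to 0.27, Cnn3 from −0.39 to 0.42, Nr5a2 from −0.34 to 0.43, Ldhc from −0.35 to 0.32, Dnmt3l from −0.14 to 0.64, Actg1 from −0.28 to 0.15, Hba-a1 from −0.47 to 1.67, Hba-a2 from −0.60 to 2.04, Spire1 from −0.16 to 0.67, Trim28 from −0.32 to 0.090, Obox7 from −0.044 to 0.58, Obox5 from −0.73 to 0.079, Dppa3 from −0.56 to 0.070 and Eif2s3y from −4.02 to 0.061. The causes were not tested. Depth limits the genes near 5 FPKM, which had a median of 31.3 reads per library between 5 and 10 FPKM.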
